A study of Mus musculus with 12 samples.

Results

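Gene symbols that name an integrin alpha chain, an integrin beta chain or a laminin chain, 35 in number, were described across 4 groups of mouse libraries. The rule took symbols of these families (Itga, Itgb, Lama, Lamb and Lamc followed by a number or letter) from 22317 symbols, whatever their values. A single gene whose symbol fits the rule is not reported here. The 35 comprised 18 alpha chains, 7 beta chains and 10 laminin chains. Itgb6 was not analysed here. Photothrombosis (PT), in which a light-activated dye closes the vessels of a small area, was applied to the skull or to the brain of wild-type male BALB/c mice, 8 weeks old. Libraries labelled brain cortex were taken on day 2 (SB2) and day 4 (SB4) after ischemic injury of the skull, and libraries labelled interparietal bone on day 2 (BS2) and day 6 (BS6) after ischemic injury of the brain, with 3 libraries in each group. Uninjured controls and the injured tissues themselves were not analysed here, so no value was set against a control. The labels do not say that the 3 libraries of a group came from separate animals, and the study calls them biological replicates.

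Integrins are receptors of the cell surface, each made of an alpha and a beta chain, that tie cells to the matrix around them or to other cells and carry signals in both directions. Laminins are secreted trimers of an alpha, a beta and a gamma chain. They are main components of basement membranes, the thin matrix sheets under epithelia and endothelia and around muscle and nerve fibres. In the brain most laminin lies along the vessels, whereas bone and its marrow hold collagen receptors on osteoblasts and platelets and leukocyte integrins on blood cells.

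Markers of tissue went against the labels of the SB2 and BS2 libraries. The summed level of 12 neuron genes was 86.2 to 135 CPM (the count scaled by the effective size of its library) in SB2 and 88.5 to 167 in BS6, and 13706 to 14588 in SB4 and 13235 to 13649 in BS2. The summed level of 9 osteoblast and osteocyte genes was 68514 to 78212 CPM in SB2 and 39349 to 159950.2 in BS6, and 27.3 to 35.0 in SB4 and 31.0 to 53.6 in BS2. SB2 and BS6 are therefore called bone-rich here, and SB4 and BS2 neuron-rich. Whether the labels of SB2 and BS2 were exchanged was not tested and cannot be told from these values. The groups, their days and their injury sides are given as labelled throughout, and an exchange would alter the meaning of every comparison with SB2 or BS2. Within each labelled tissue the later and the earlier day differed in this content, so the day, and the tissue that a library holds, cannot be told apart. In bulk RNA, fewer cells of a type and less RNA per cell cannot be told apart either. The total count per library was 14126082 to 18972654. BS6 replicate 2 stood apart from the other BS6 libraries, with 25566 CPM of neutrophil lineage markers against 1468 and 3461. Called member values that move by over 1.5 times or lose their call without it are given with and without it. Replicates 1 and 3 were not alike either. The chi-square per degree of freedom, which sets a pair of libraries against sampling noise over genes with enough counts, was 34.55 between them. It was 197.52 and 212.83 between replicate 2 and each of them, and at most 16.94 within the other groups.

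A gene was called higher or lower in edgeR's quasi-likelihood test when the p adjusted by Benjamini-Hochberg was under 0.05 and the log2 fold change lay beyond 1 in either direction. In SB4, 24 of the 34 members tested were lower than in SB2, where 28.6% of all genes tested were, and 1 was higher (Itgb8), where 27.8% of all genes were. The median log2 fold change of the members was -2.54, and that of all genes tested was -0.01. In BS6, 28 of 35 members were higher than in BS2, against 29.0% of all genes, and Itgb8 alone was lower, against 26.5% of all genes. Here the members' median was 2.68 and that of all genes 0.02. Itga2 and Itgae had fewer than 10 counts in every SB4 library, and Itga2, Itgad and Itgax in every BS2 library. Itgal and Itgb7 in both comparisons, Itgax in the first and Itgae in the second had low counts in the neuron-rich group too. All of these entered the test only through the bone-rich group. The counts of 24 and 28 include them and so are a description. The libraries of both groups did not overlap for 32 members in SB4 and SB2 and for 32 in BS6 and BS2. Of all genes, 85.5% and 80.8% did not overlap, so this count alone sets the members little apart. The same holds for each member named below as separated between these groups. These are the study's own comparisons, of the later with the earlier day within each labelled tissue. Called members differed 2.78-fold to 62.5-fold between SB4 and SB2 and 2.38-fold to 212-fold between BS6 and BS2, where the largest ratio was that of Itgal, with 11, 2 and 1 counts in BS2.

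**Figure D1:**
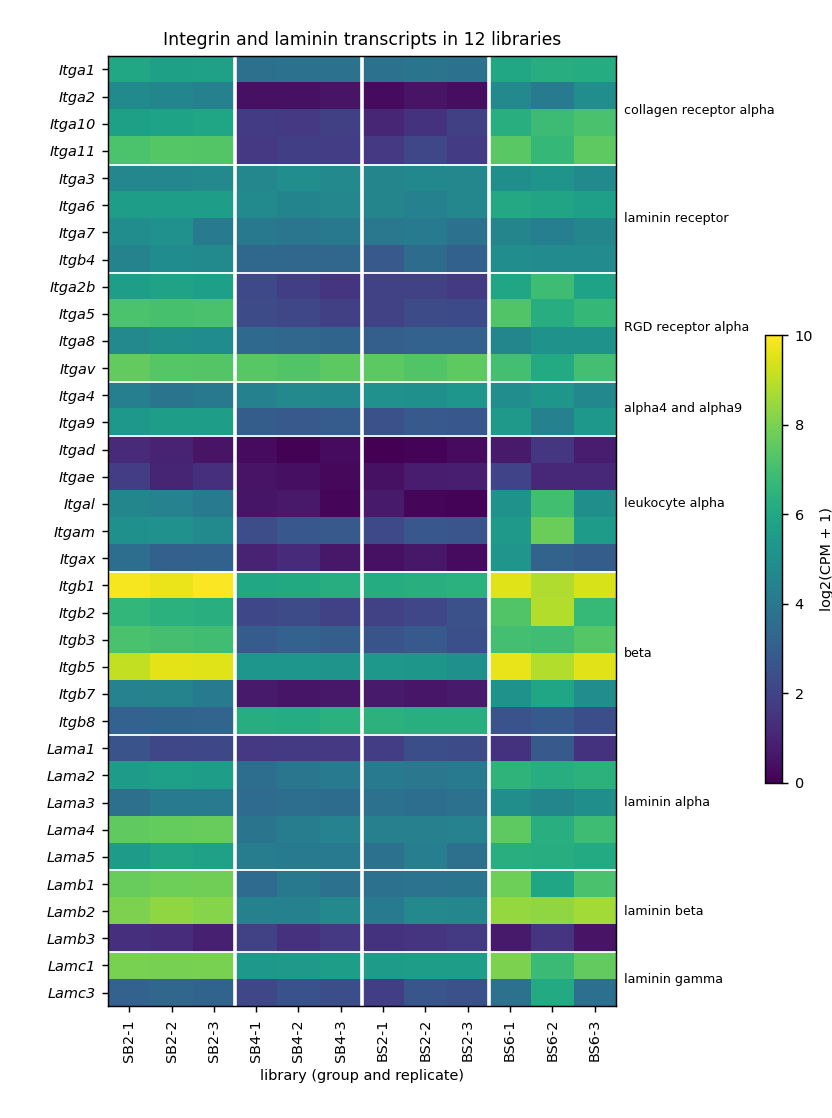
Level of each member as log2(CPM + 1) (colour) in the 12 libraries (columns, by group and replicate), with the members ordered by role (rows). Most rows are brighter in the bone-rich SB2 and BS6 than in the neuron-rich SB4 and BS2, and Itgb8 shows the opposite. Itgav, Itga3 and Itga4 are not dark in any group, and neither are Itgb1, Itgb5 and Lamc1.

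Most members were readily detected in the bone-rich libraries. A mean of at least 1 CPM was reached by 34 members in SB2, 29 in SB4, 29 in BS2 and 35 in BS6, and a mean of at least 100 CPM by 10, 1, 1 and 13 members. The 1 member above 100 CPM in the neuron-rich groups was Itgav. Per kb of exon, which allows genes to be compared, Itgb1 led in SB2 at 224 ± 17.7 CPM per kb (SD, n = 3), followed by Itgb5 at 191 ± 34.8 and Lamb2 at 47.6 ± 4.64. In BS6 the order of the first pair was turned, with Itgb5 at 191 ± 54.8 and Itgb1 at 151 ± 37.5. Neither order of the means exceeds the spread between libraries. Within each BS6 library Itgb5 was the higher, at 231, 128 and 213 against 180.2, 109 and 164. The SB2 libraries went both ways, with Itgb5 at 151, 215 and 207 against 227, 205 and 240.1. In SB4 Itgb1 at 16.5 ± 1.62 and Itgav at 15.6 ± 1.06 did not differ beyond their spread and were followed by Itgb5 at 10.3 ± 0.383 and Itgb8 at 6.88 ± 0.495. BS2 had the same first 4 genes, at 18.9 ± 1.36, 15.9 ± 1.26, 10.2 ± 1.21 and 7.17 ± 0.410 CPM per kb. The order of Itgb1 and Itgav depends on the length used. The exon union of Itgav has 10744 bases and its longest transcript 7054, against 4081 and 3815 for Itgb1. Summed over all chains, alpha chains came to 135 ± 2.46 in SB2, 32.6 ± 0.621 in SB4, 32.5 ± 1.07 in BS2 and 163 ± 15.4 in BS6. The beta chains summed to 477 ± 30.1, 37.5 ± 1.61, 39.7 ± 0.448 and 461 ± 34.7 CPM per kb.

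The promoters of 4 members are shown because they cover the main patterns: Itgam of myeloid cells, Itga2b of megakaryocytes and Itgb7 of lymphocytes, all higher in the bone-rich libraries, and Itgb8, which was higher in the neuron-rich ones. Each run spans 250 bases before to 50 after the gene's start (RefSeq, GRCm38.p6) and is written 5′ to 3′ on the strand of the gene. Capitals mark GAGGAA, the core that PU.1 and related ETS factors of blood cells prefer, or its reverse complement TTCCTC. The windows lie at chr7:128062390-128062689 (plus strand, Itgam), chr11:102469834-102470133 (minus strand, Itga2b), chr15:102231886-102232185 (minus strand, Itgb7) and chr12:119238227-119238526 (minus strand, Itgb8).
Itgam: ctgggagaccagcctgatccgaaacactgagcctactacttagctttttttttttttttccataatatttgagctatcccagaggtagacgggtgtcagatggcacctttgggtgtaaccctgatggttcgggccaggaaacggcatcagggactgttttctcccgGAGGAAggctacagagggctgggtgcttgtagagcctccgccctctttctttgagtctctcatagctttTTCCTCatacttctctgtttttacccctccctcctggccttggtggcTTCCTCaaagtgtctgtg
Itga2b: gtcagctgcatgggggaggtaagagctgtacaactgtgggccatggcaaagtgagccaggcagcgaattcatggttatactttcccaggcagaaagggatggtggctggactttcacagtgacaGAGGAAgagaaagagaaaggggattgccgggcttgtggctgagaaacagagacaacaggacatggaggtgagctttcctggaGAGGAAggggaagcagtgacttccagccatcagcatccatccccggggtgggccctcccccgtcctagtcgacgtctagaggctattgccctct
Itgb7: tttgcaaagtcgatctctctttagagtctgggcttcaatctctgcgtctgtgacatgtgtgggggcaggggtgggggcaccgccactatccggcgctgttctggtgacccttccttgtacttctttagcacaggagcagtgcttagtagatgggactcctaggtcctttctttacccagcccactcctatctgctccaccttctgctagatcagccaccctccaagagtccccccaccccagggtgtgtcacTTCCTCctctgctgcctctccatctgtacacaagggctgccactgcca
Itgb8: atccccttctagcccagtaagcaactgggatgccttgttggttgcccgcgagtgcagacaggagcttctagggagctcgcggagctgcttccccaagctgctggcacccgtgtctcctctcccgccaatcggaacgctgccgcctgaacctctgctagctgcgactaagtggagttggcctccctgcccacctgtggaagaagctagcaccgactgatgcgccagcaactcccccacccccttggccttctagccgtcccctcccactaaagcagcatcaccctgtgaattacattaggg
The Itgam window holds the letters 3 times, at 84 and 15 bases before the start and 33 after it, and the Itga2b window 2 times, at 126 and 44 bases before. A single match lies at 3 bases after the start of Itgb7, and the Itgb8 window has none. Of the 22 members with a window in the RefSeq table, 12 hold GAGGAA on either strand (54.5%), and 28.3% of all 32851 windows do. TGTGGT, the core letters of RUNX sites, was found in 2 of the 22 (Itga4 and Itgax, 9.1%) and in 16.8% of all windows. The motifs do not overlap each other in these windows. Such matches describe letters and not binding. Among members with a match were also Itgav, with 2, and Lamb3 (1), which were not called in either comparison of days. Itgb1, Itga5, Itga11, Lama2, Lama5, Lamb1 and Lamb2 (1 each) had a match and were called. The windows of Itga1, Itga2, Itga8, Itga9, Itga10, Itgax and Itgb5, which were called in the same directions, hold no GAGGAA. Those of Itga3 and Itga4, which were not called, hold none either.

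Collagen-binding alpha chains, which pair with the beta chain of Itgb1, were all 4 called lower in SB4 than in SB2, where 28.6% of all genes were, and higher in BS6 than in BS2, where 29.0% were, with Itga2 tested only because of its level in the bone-rich group. Itga11, a receptor for fibrillar collagen on mesenchymal cells, was 142, 164 and 158 CPM in SB2 and 2.20, 2.61 and 2.51 in SB4, and 2.12, 3.33 and 2.32 CPM in BS2 and 173, 99.2 and 180.1 in BS6. Itga10, first described in cartilage, stood at 50.6, 54.6 and 59.8 CPM in SB2 and 2.41, 2.17 and 2.67 in SB4, and 1.12, 1.73 and 2.69 CPM in BS2 and 76.4, 116 and 138 in BS6. Every bone-rich library exceeded every neuron-rich library for both genes. The log2 fold change of Itga11 was -5.97 ± 0.10 (SE) in SB4 against SB2 (edgeR, adjusted p = 1.48e-12) and 5.89 ± 0.33 in BS6 against BS2 (adjusted p = 1.67e-05), and that of Itga10 -4.50 ± 0.12 and 5.95 ± 0.39. Itga2, the collagen receptor of platelets, measured 25.8, 23.1 and 19.8 CPM in SB2 and 0.355, 0.381 and 0.446 in SB4, and 0.236, 0.448 and 0.291 CPM in BS2 and 25.4, 16 and 28.7 in BS6. All libraries of SB4 and BS2 had fewer than 10 counts of Itga2, so it entered the test through the bone-rich group, and its fitted changes of -5.82 ± 0.21 and 6.17 ± 0.36 rest on few counts on the low side. Itga1, which prefers the network-forming collagen of basement membranes, reached 61.3, 49.8 and 51.5 CPM in SB2 and 11.8, 12.7 and 12.5 in SB4, and 12.1, 13.5 and 12.2 CPM in BS2 and 61.2, 74.4 and 71.6 in BS6. It kept a measurable level in the neuron-rich libraries and had smaller changes, -2.13 ± 0.10 and 2.49 ± 0.12. Part of the exons of Itga1 is shared with an annotated gene on the same strand (Gm49395), and reads there could be counted for either. Of the 5186 exon bases of Itga10, 1739 are shared with Gm42957 on the same strand, and the counting could have split or dropped reads there. Itga2 and Itga1 are neighbours on chromosome 13, 21 kb apart.

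The integrin chains that bind laminin (Itga3, Itga6 and Itga7 with Itgb1, and Itgb4 with Itga6) had the smallest median changes of the 9 role groups, -0.88 in SB4 against SB2 and 0.98 in BS6 against BS2. Only Itgb4 of these 4 was called lower in SB4, a share close to the 28.6% of all genes, and Itgb4 and Itga6 were called higher in BS6, against 29.0% of all genes. Itgb4, the chain that anchors epithelia at hemidesmosomes and whose exons overlap those of B230344G16Rik, was 21.3, 28.2 and 25.8 CPM in SB2 and 9.29, 8.97 and 8.74 in SB4, and 5.96, 10.7 and 7.55 CPM in BS2 and 29.1, 27.1 and 27.0 in BS6. Itga6, found on endothelium and on stem and progenitor cells, stood at 45.9, 48.1 and 47.0 CPM in SB2 and 26.3, 22.1 and 23.6 in SB4, and 22.6, 19.9 and 23.6 CPM in BS2 and 65.1, 56.1 and 49.6 in BS6. The neuron-rich libraries lay below the bone-rich ones for both, with log2 fold changes of -1.47 ± 0.12 and 1.82 ± 0.22 for Itgb4 and -0.97 ± 0.09 and 1.41 ± 0.14 for Itga6. The first value of Itga6 had an adjusted p of 1.2e-06 (edgeR) but stayed just inside the fold limit, and was past it with total counts in place of TMM (-1.06) or without SB4 replicate 1 (-1.02). Itga3, which binds laminins of epithelial basement membranes, ranged from 22.5 to 34.7 CPM over all 12 libraries and was not called in any comparison (0.09 ± 0.10 in SB4 against SB2, 0.40 ± 0.14 in BS6 against BS2). Itga7, the laminin receptor of muscle fibres, was 28.8, 32.6 and 16.9 CPM in SB2 and 12.6 to 22.9 in the other groups. It was not called in either comparison of days (-0.80 ± 0.23 and 0.55 ± 0.16), and without SB2 replicate 3, its low SB2 library, SB4 was called lower by -1.03. The same library had 242 CPM of skeletal muscle markers against 1583 and 1833 in the others, and the part of muscle in the Itga7 level was not tested. Keratinocyte markers summed to 5.37 to 8.71 CPM in all 12 libraries.

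Alpha chains that recognise the RGD peptide of fibronectin, vitronectin and fibrinogen went separate ways. Itga5, the classic fibronectin receptor, measured 141, 134 and 139.7 CPM in SB2 and 3.90, 3.32 and 2.67 in SB4, and 2.77, 3.97 and 3.70 CPM in BS2 and 154, 74.8 and 99.3 in BS6. Itga2b, the fibrinogen receptor chain of megakaryocytes and platelets, reached 45.8, 53.0 and 48.5 CPM in SB2 and 3.62, 2.66 and 1.89 in SB4, and 2.77, 2.82 and 2.25 CPM in BS2 and 60.1, 119 and 54.9 in BS6. Both were low in the neuron-rich and high in the bone-rich libraries without overlap, with log2 fold changes of -5.40 ± 0.11 and 5.01 ± 0.33 for Itga5 and -4.19 ± 0.17 and 4.93 ± 0.38 for Itga2b. Summed megakaryocyte and platelet markers moved with Itga2b, from 162 to 188 CPM in SB2 and 186 to 305 in BS6 to 3.97 to 6.03 in SB4 and 4.67 to 7.20 in BS2, and their part in it was not tested. Itga8, a receptor of smooth muscle and fibroblasts, was 25.1, 30.7 and 28.4 CPM in SB2 and 9.79, 8.97 and 8.24 in SB4, and 7.20, 7.88 and 7.77 CPM in BS2 and 23.3, 34.1 and 33.5 in BS6. Its changes were smaller, -1.64 ± 0.12 and 2.03 ± 0.18, and its exons overlap those of E030013I19Rik. Itgav, the alpha chain shared by several vitronectin and TGF-beta binding receptors, stood at 193, 163 and 158 CPM in SB2 and 168, 157 and 179 in SB4, and 178, 156 and 180.3 CPM in BS2 and 129, 68.7 and 129.8 in BS6. The SB2, SB4 and BS2 libraries of Itgav overlapped and BS6 lay below them, with BS6 replicate 2 lowest. In SB4 against SB2 Itgav changed by -0.02 ± 0.09 on the log2 scale (edgeR, adjusted p = 0.805). In BS6 against BS2 it changed by -0.62 ± 0.25 (edgeR, adjusted p = 0.0586). Without BS6 replicate 2 the latter was -0.37 ± 0.09 (edgeR, adjusted p = 0.00361), still inside the fold limit.

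The related chains Itga4 and Itga9 bind fibronectin splice forms and vessel or matrix ligands. Itga9 measured 39.4, 47.8 and 46.9 CPM in SB2 and 6.81, 5.98 and 6.46 in SB4, and 4.54, 5.96 and 5.59 CPM in BS2 and 41.3, 20 and 38.8 in BS6. It was lower in SB4 (-2.80 ± 0.11) and higher in BS6 (2.67 ± 0.31). Itga4, the homing receptor chain of leukocytes, reached 19, 13.5 and 15.4 CPM in SB2 and 20.3, 24.8 and 24.2 in SB4, and 32.4, 31.5 and 37.3 CPM in BS2 and 28.8, 37.8 and 24.2 in BS6. Its SB2 libraries lay below those of all other groups, and its highest values were in BS2 and BS6. The difference between the neuron-rich groups was the only one among 30 members tested with an adjusted p under 0.05 there: SB4 was lower than BS2 by -0.56 ± 0.09 on the log2 scale (edgeR, adjusted p = 0.00282, and 0.0035 to 0.0456 with each library left out), all 3 SB4 libraries lying below all 3 BS2 libraries. By adjusted p alone 0.369% of all genes were lower in that comparison. SB4 exceeded SB2 by 0.54 ± 0.14 (adjusted p = 0.00335), which is also inside the fold limit. The exons of Itga4 overlap those of Cerkl on the opposite strand, and since the use of strand in the counting is not given in the sources used here, the reads of both loci cannot be told apart there.

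The alpha chains of leukocytes were higher in the bone-rich libraries, 4 of 4 tested on the skull injury side, where 28.6% of all genes were, and 5 of 5 on the brain injury side, where 29.0% were. Itgae in SB4, and Itgad and Itgax in BS2, had fewer than 10 counts in every library. Itgal in SB4 and BS2, Itgax in SB4 and Itgae in BS2 had low counts too. All of these entered the test only through the group where they were high, so the counts of called chains are a description. Neutrophil markers were 898 to 1635 CPM in SB2, 2.90 to 5.49 in SB4, 0.944 to 2.11 in BS2 and 1468 to 25566 in BS6. In the same order, macrophage and microglia markers were 1051 to 1069, 229 to 259.7, 219 to 233 and 879 to 1203. Of the latter list P2ry12 was called the other way. B cell markers were 56.3 to 71.2, 3.79 to 5.11, 3.24 to 4.36 and 75.9 to 135. The part of these cells in the chains was not tested. Itgal, which lets leukocytes bind to endothelium, was 23.4, 20.4 and 15.9 CPM in SB2 and 0.497, 0.598 and 0.111 in SB4, and 0.649, 0.128 and 0.0726 CPM in BS2 and 34.1, 125 and 30.5 in BS6. Itgam, the alpha chain of complement receptor CR3 on neutrophils and macrophages, stood at 31.4, 32.2 and 25.8 CPM in SB2 and 4.11, 5.60 and 5.90 in SB4, and 3.60, 5.64 and 5.16 CPM in BS2 and 41.5, 217 and 44.0 in BS6. BS6 replicate 2 held the highest value of both genes by far, while the other BS6 libraries lay closer to, but still above, the SB2 libraries. Itgal changed by -5.62 ± 0.33 in SB4 against SB2 and 7.73 ± 0.97 in BS6 against BS2, and by 6.75 ± 0.40 in the latter without BS6 replicate 2 or 9.19 without BS2 replicate 1. For Itgam the values were -2.50 ± 0.15 and 4.44 ± 0.79, and 3.20 ± 0.17 without that library (edgeR, adjusted p = 1.77e-07). Without it the BS6 mean fell from 63.1 to 32.3 CPM for Itgal and from 101 to 42.7 CPM for Itgam. Itgax, common on dendritic cells and some macrophages, measured 11.3, 7.39 and 7.63 CPM in SB2 and 0.922, 1.36 and 0.557 in SB4, and 0.354, 0.576 and 0.218 CPM in BS2 and 35.9, 7.97 and 6.75 in BS6. Here BS6 replicate 1 and not replicate 2 stood out: the BS6 mean of 16.9 CPM was 7.36 without it, and the change against BS2 was 4.27 in place of 5.45 ± 0.91. Itgae, the chain of tissue-resident lymphocytes, reached 2.56, 1.07 and 1.65 CPM in SB2 and 0.426, 0.326 and 0.167 in SB4, and 0.354, 0.704 and 0.799 CPM in BS2 and 3.06, 1.15 and 1.15 in BS6. Its BS6 call (1.57 ± 0.54, adjusted p = 0.036 in edgeR) was lost without BS6 replicate 1 (0.94), without BS2 replicate 1, 2 or 3 (1.26, 1.66 and 1.77), and so held in only 2 of 6 fits. Itgad was 1.31, 0.932 and 0.427 CPM in SB2 and 0.213, 0.0544 and 0.223 in SB4, and 0, 0.0640 and 0.218 CPM in BS2 and 0.652, 1.99 and 0.764 in BS6, with 10, 33 and 12 counts in BS6 and 0, 1 and 3 in BS2. With 3 counts per library as the floor, Itgad was at least 5.81-fold higher in BS6 than in BS2, or at least 3.62-fold without BS6 replicate 2, and it was not tested between SB4 and SB2. Itgam, Itgax and Itgad lie side by side on chromosome 7, with 11.1 kb and 3.7 kb between them. An annotated gene model, Gm49368, shares 3450 exon bases with Itgam, and the counting could have split or dropped reads there. Of the exon bases of Itgad, 890 are shared with other annotated genes.

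Of the beta chains 6 of 7 were lower in SB4 and higher in BS6, against 28.6% and 29.0% of all genes. Itgb8 was called in the opposite direction on both sides, as were 27.8% and 26.5% of all genes. Itgb1, the partner of most alpha chains, stood at 925, 836 and 979.8 CPM in SB2 and 60.9, 67.1 and 74.1 in SB4, and 72.2, 75.9 and 83.1 CPM in BS2 and 735, 444 and 671 in BS6. Itgb5, which pairs with the chain of Itgav to bind vitronectin, measured 536, 763 and 735 CPM in SB2 and 36.8, 37.6 and 34.9 in SB4, and 38.9, 38.4 and 31.2 CPM in BS2 and 819.5, 455 and 757 in BS6. The highest neuron-rich library was at 83.1 CPM for Itgb1 and 38.9 CPM for Itgb5, and the lowest bone-rich library at 444 and 455 CPM. Itgb1 changed by -3.76 ± 0.10 (edgeR, adjusted p = 3.06e-11) and 3.04 ± 0.21 (adjusted p = 3.45e-05), and Itgb5 by -4.21 ± 0.14 and 4.26 ± 0.27. Itgb3, the partner of Itga2b on platelets and of Itgav on osteoclasts, reached 140.5, 133 and 122 CPM in SB2 and 6.45, 7.94 and 7.07 in SB4, and 5.07, 5.89 and 4.50 CPM in BS2 and 127, 120.0 and 165 in BS6. Its changes of -4.19 ± 0.10 and 4.77 ± 0.18 were close in size, and BS6 replicate 2 did not stand apart. Osteoclast markers moved with it, at 2797 to 3088 CPM in SB2, 1524 to 3356 in BS6 and at most 11.1 in the neuron-rich libraries, and their part in it was not tested. Itgb2, the common beta chain of leukocyte integrins, was 96.5, 83.3 and 77.4 CPM in SB2 and 3.55, 3.86 and 2.79 in SB4, and 2.95, 3.33 and 4.65 CPM in BS2 and 154, 454 and 102 in BS6. Itgb7, which joins Itga4 or Itgae on lymphocytes, stood at 20.7, 21.5 and 16.9 CPM in SB2 and 0.638, 0.489 and 0.557 in SB4, and 0.649, 0.512 and 0.654 CPM in BS2 and 33.1, 57.7 and 29.0 in BS6. Itgb2 followed Itgal and Itgam in being highest in BS6 replicate 2, and changed by -4.65 ± 0.14 and 6.07 ± 0.70, or 5.18 ± 0.25 without that library. Itgb7 changed by -5.12 ± 0.20 and 6.07 ± 0.38, with only 8 to 11 counts in each SB4 and BS2 library. In both comparisons of days it entered the test only through the bone-rich group, so the count of 6 of 7 is a description.

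Itgb8, at chr12:119158022-119238802 on the minus strand (GRCm38), encodes a chain that pairs with that of Itgav, releases active TGF-beta and is known on astrocytes and other neural cells. It measured 7.86, 8.26 and 8.67 CPM in SB2 and 73.8, 72.1 and 82.3 in SB4, and 84.2, 75.2 and 78.7 CPM in BS2 and 4.89, 6.16 and 4.26 in BS6. All 6 neuron-rich libraries lay above all 6 bone-rich ones, and the spread within each group was small. The log2 fold change was 3.21 ± 0.09 in SB4 against SB2 (edgeR, adjusted p = 5.68e-11) and -3.92 ± 0.17 in BS6 against BS2 (adjusted p = 7.57e-06), and every fit that left out a library kept both calls. Summed astrocyte markers were 4859 to 5159.9 CPM in SB4 and 4761 to 5277 in BS2, against 852 to 961 in SB2 and 439 to 885 in BS6. On average most of the sum was Slc1a2, the glutamate transporter, in SB4 (mean 3978 CPM) and BS2 (4092), and Gja1, a gap junction gene also used by bone cells, in SB2 (700.5) and BS6 (428). Gja1 went the other way from the sum, at -2.21 in SB4 against SB2 and 1.25 in BS6 against BS2, while 6 of the 8 markers were called with it on both sides. Their part in the level of Itgb8 was not tested.

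**Figure D2:**
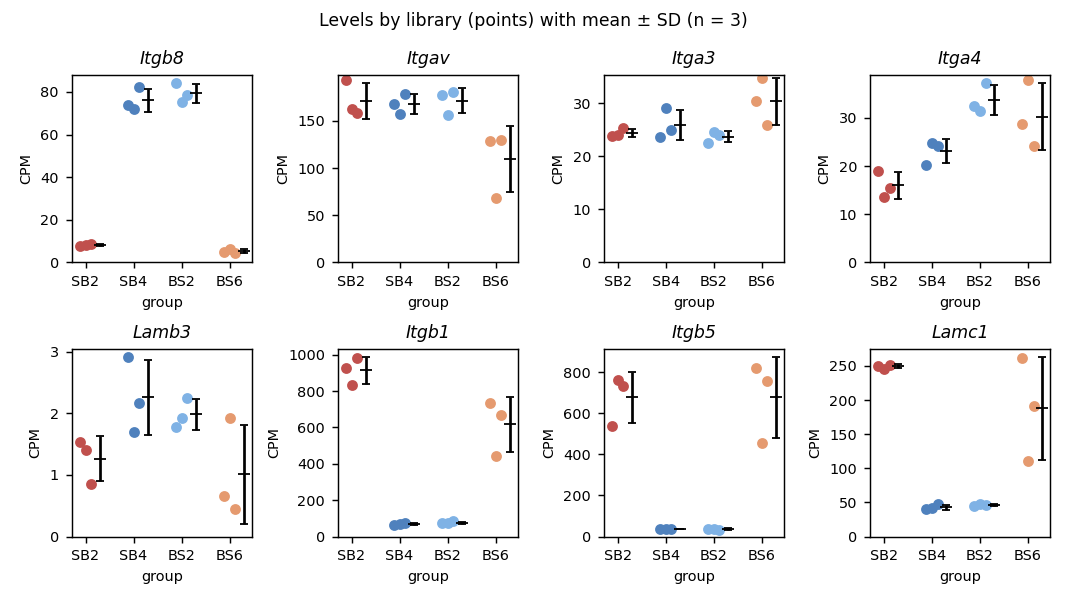
Level in CPM (vertical axes, from 0) of 8 members by group, with 1 point per library and the mean ± SD (n = 3) beside the points. Itgb8 is high only in SB4 and BS2, Itgb1, Itgb5 and Lamc1 are high only in SB2 and BS6, and Itgav and Itga3 are detected in all 4 groups, with BS6 lowest for Itgav.

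Set side by side per exon length, partner chains that are known to pair moved together in some cases and apart in others. The leukocyte alpha chains Itgal, Itgam, Itgax and Itgad summed to 11 ± 1.63 CPM per kb in SB2 and their partner Itgb2 to 28.1 ± 3.21, while in SB4 both were near 1, at 1.33 ± 0.185 and 1.11 ± 0.181. In BS6 replicate 2 the sums were 64.2 for the alpha chains and 149 for Itgb2, against 21.1 and 50.3 in replicate 1 and 15.0 and 33.4 in replicate 3. Itga2b and Itgb3 stood at 9.01 ± 0.668 and 22.3 ± 1.56 in SB2 and at 0.5 ± 0.158 and 1.21 ± 0.126 in SB4. In BS6 they did not move together, with Itga2b at 11, 21.7 and 10.1 CPM per kb in replicates 1, 2 and 3 and Itgb3 at 21.5, 20.3 and 27.9. Itgav stood at 15.9 ± 1.76, 15.6 ± 1.06, 15.9 ± 1.26 and 10.2 ± 3.26 CPM per kb in SB2, SB4, BS2 and BS6, and so was lowest in BS6. Its partner Itgb5 exceeded its partner Itgb8 in all groups, and Itgb8 was 0.157% of the summed beta chains in SB2 and 0.101% in BS6, and 18.4% in SB4 and 18.1% in BS2. The share of Itgb5 was 39.9% in SB2, 41.0% in BS6, 27.4% in SB4 and 25.7% in BS2. Libraries did not overlap for these shares of Itgb8 and Itgb5 between SB4 and SB2, nor between BS6 and BS2, which gives a p of 0.1 in the exact two-sided permutation test, the smallest that 3 against 3 libraries allow.

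Of the laminin alpha chains, Lama2, Lama4 and Lama5 were lower in SB4 and higher in BS6, where 28.6% and 29.0% of all genes were. Lama4, a chain of vessel and mesenchymal basement membranes, reached 186, 199 and 204 CPM in SB2 and 13.5, 17.8 and 20.7 in SB4, and 19.6, 19.4 and 20.8 CPM in BS2 and 180.5, 76.6 and 118 in BS6. Lama5, the widespread chain of adult epithelial and vascular basement membranes, was 45.7, 56.0 and 51.8 CPM in SB2 and 17.5, 16.1 and 16.7 in SB4, and 12.7, 18.3 and 12 CPM in BS2 and 75.7, 73.4 and 68.3 in BS6. Lama2, the chain of muscle and peripheral nerve laminin, stood at 45.3, 48.9 and 46.1 CPM in SB2 and 11.1, 14 and 15.8 in SB4, and 16.9, 14.5 and 15.8 CPM in BS2 and 89.2, 73.5 and 85.6 in BS6. All 3 genes were separated without overlap between neuron-rich and bone-rich libraries. Of all genes, 85.5% were so separated between SB4 and SB2 and 80.8% between BS6 and BS2. In SB4 against SB2 Lama4 changed by -3.49 ± 0.13 (edgeR, adjusted p = 3.83e-09), Lama2 by -1.77 ± 0.12 and Lama5 by -1.60 ± 0.10. In BS6 against BS2 Lama4 changed by 2.68 ± 0.31, Lama2 by 2.43 ± 0.12 and Lama5 by 2.38 ± 0.18, and the differences between them were not tested. Lama3, the chain of epithelial anchoring laminin, measured 11.8, 15.8 and 15.8 CPM in SB2 and 10.4, 11.4 and 10.6 in SB4, and 12.4, 11.3 and 12.3 CPM in BS2 and 29.8, 23.0 and 30.7 in BS6. It was called higher only in BS6 (1.25 ± 0.15), and its SB4 value of -0.42 ± 0.14 did not pass the fold limit. Lama1, a chain of embryonic and brain surface basement membranes, stayed between 1.76 and 5.98 CPM over all libraries and was not called in either comparison of days, the highest library being BS6 replicate 2. Summed endothelial markers also differed, with 824 to 882 CPM in SB2, 767 to 1026 in BS6, 118 to 144 in SB4 and 91.1 to 136 in BS2, as did mural cell markers at 1516 to 1544, 1112 to 1740.0, 207 to 269 and 191 to 248. Their part in the laminin levels was not tested.

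Both beta chains of vascular laminins were lower in SB4 and higher in BS6, where 28.6% and 29.0% of all genes were. Lamb1 reached 206, 218 and 225 CPM in SB2 and 10.4, 15.4 and 12.2 in SB4, and 12.8, 13 and 13.4 CPM in BS2 and 222, 58.1 and 140.1 in BS6. Lamb2, which also marks the neuromuscular junction, was 263, 319 and 287 CPM in SB2 and 20.1, 20 and 25.2 in SB4, and 16.3, 24.8 and 23.5 CPM in BS2 and 337, 322 and 393 in BS6. Lamb1 was uneven in BS6, 58.1 CPM in replicate 2 against 222 and 140.1, while Lamb2 was even. Their log2 fold changes were -4.08 ± 0.12 and 3.46 ± 0.48 for Lamb1 and -3.72 ± 0.11 and 4.06 ± 0.20 for Lamb2. Lamb3, the beta chain of epithelial anchoring laminin, stood at 1.54, 1.40 and 0.855 CPM in SB2 and 2.91, 1.69 and 2.17 in SB4, and 1.77, 1.92 and 2.25 CPM in BS2 and 0.652, 1.93 and 0.445 in BS6, so no library exceeded 2.91 CPM. Its log2 fold change was 0.82 ± 0.32 in SB4 against SB2 and -0.91 ± 0.54 in BS6 against BS2, neither called, but without BS6 replicate 2 the latter was -1.80 ± 0.38 (edgeR, adjusted p = 0.00207), and without SB4 replicate 2 the former was 1.03, both past the limits.

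Of the gamma chains described, Lamc1 was lower in SB4 (28.6% of all genes) and Lamc1 and Lamc3 were higher in BS6 (29.0%). Lamc1, the chain of most laminins, measured 250.3, 246 and 252 CPM in SB2 and 39.7, 41.8 and 47.2 in SB4, and 44.7, 47.4 and 46.6 CPM in BS2 and 262, 111 and 192 in BS6. Lamc1 changed by -2.53 ± 0.08 in SB4 against SB2 (edgeR, adjusted p = 7.1e-11) and 2.06 ± 0.30 in BS6 against BS2 (adjusted p = 0.000934). All bone-rich libraries lay above all neuron-rich ones. Lamc3, a less common chain known from nervous tissue among other places, reached 7.80, 8.86 and 8.30 CPM in SB2 and 3.33, 4.78 and 4.34 in SB4, and 2.60, 5.31 and 4.58 CPM in BS2 and 12.3, 67.6 and 11.5 in BS6. Its BS6 mean of 30.5 CPM was 11.9 without replicate 2, and the change of 2.92 ± 0.81 against BS2 was 1.56 ± 0.27 without it (edgeR, adjusted p = 0.000591). The call was lost without BS2 replicate 1 (2.65) or BS2 replicate 3 (2.98). In SB4 the value of -0.99 ± 0.18 lay at the fold limit and was past it in 3 of 6 fits with a library left out.

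**Figure D3:**
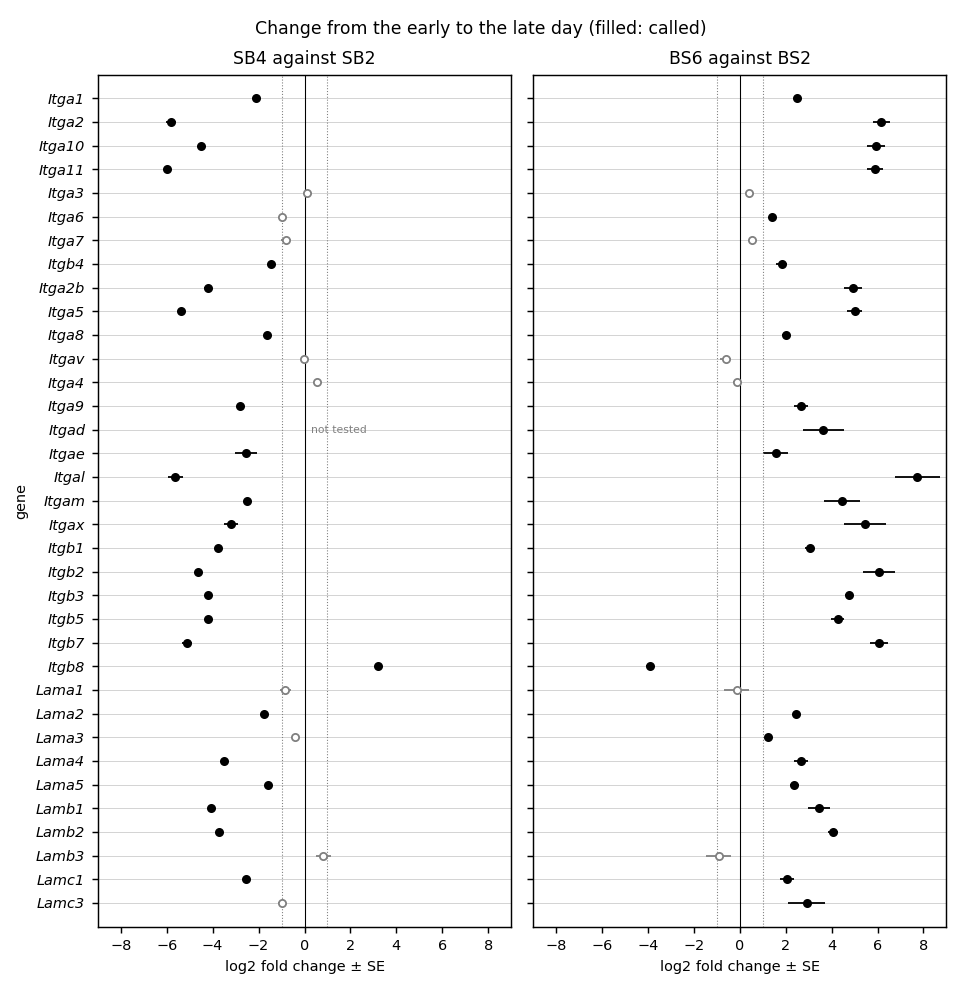
Log2 fold change ± SE of each member in SB4 against SB2 (left) and BS6 against BS2 (right) from edgeR, with called members filled and dotted lines at the fold limits. Called points lie left of 0 on the left and right of 0 on the right, except Itgb8, which is the other way round in both.

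Per exon length, Lama3 and Lama1 had larger shares of the laminin alpha chains in the neuron-rich group on both sides, and Lama2 and Lama5 did not. Lama4 made up 64.2% ± 1.07 of the alpha chains in SB2, 40.7% ± 9.09 in BS6, 28.7% ± 3.62 in SB4 and 30.8% ± 1.91 in BS2. Lama3 made up 5.28% ± 0.564, 10.6% ± 1.33, 20.2% ± 1.55 and 20.9% ± 1.88 in the same order, although its level in CPM was not higher in the neuron-rich libraries. Lamb2 kept 68.3% ± 1.69, 68.8% ± 4.08 and 68.2% ± 4.47 of the beta chains in SB2, SB4 and BS2 and 80.9% ± 9.29 in BS6. Shares of Lama3 and Lama4 did not overlap between SB4 and SB2 (exact two-sided permutation p = 0.1 each). Between BS6 and BS2 the same held for Lama3, while for Lama4 the p was 0.2. Lama4 also differed between the bone-rich groups SB2 and BS6 without overlap (exact two-sided permutation p = 0.1). The shares of Lama5 and Lama2 were 17.7% and 11.3% in SB2 and 29.8% and 16.7% in SB4 (exact two-sided permutation p = 0.1 each), but 26.4% and 20.8% in BS6 and 23.3% and 18.1% in BS2 (p = 0.5 and 0.3). Shares depend on the length used: with that of the longest transcript, Lama4 made up 40.6% and Lama5 21.2% in SB4, in place of 28.7% and 29.8%. Lama1 had 1.62% ± 0.437 in SB2, 4.63% ± 0.418 in SB4, 6.92% ± 1.72 in BS2 and 1.48% ± 1.38 in BS6 (exact two-sided permutation p = 0.1 in both comparisons of days). Its BS6 share was 0.606%, 3.08% and 0.766% in replicates 1, 2 and 3, with a mean of 0.686% without replicate 2.

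**Figure D4:**
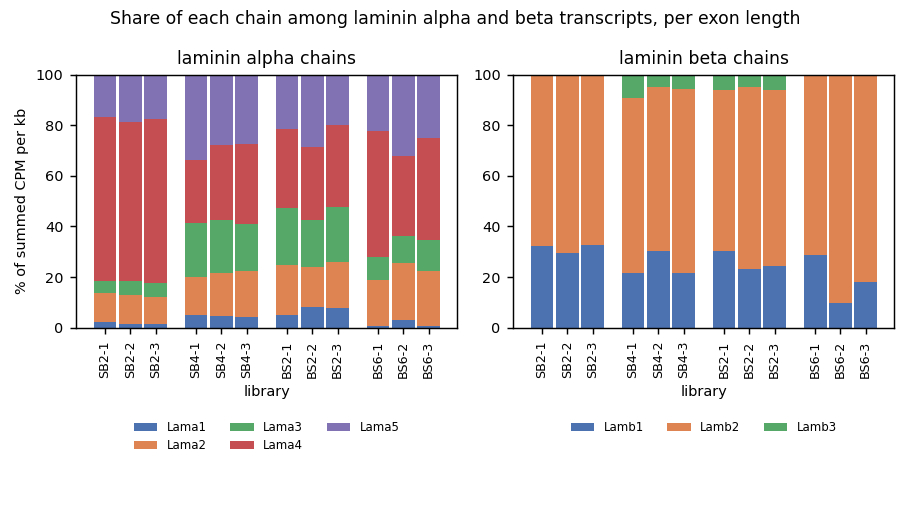
Share of each chain (% of the summed CPM per kb of exon, vertical axes) among laminin alpha and beta chains in the 12 libraries. Lama4 takes 64.2% of the alpha chains on average in SB2 and 28.7% in SB4, and Lama3 takes 5.28% and 20.2%.

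The change on the brain injury side differed from that on the skull injury side for 31 of 35 members, tested as the difference of both changes over 12 libraries in edgeR, where 73.6% of all genes were called. It was positive for 29 members, against 37.8% of all genes, and negative, against 35.8% of all genes, for Itgb8 (-7.11) and Lamb3 (-1.73). Without BS6 replicate 2 the same 31 members were called, with Itgal at 12.38 in place of 13.36, Itgam at 5.71 in place of 6.96, Itgb2 at 9.85 in place of 10.74, Itgad at 5.39 in place of 6.08, Lamc3 at 2.56 in place of 3.93 and Lamb3 at -2.61 in place of -1.73. Itga3, Itga4, Itgav and Lama1 were not called, at 0.32 ± 0.17, -0.64 ± 0.25, -0.58 ± 0.28 and 0.71 ± 0.62. The value of Lama1 was -0.14 without BS6 replicate 2. Both sides compare a bone-rich with a neuron-rich group, and the bone-rich group was the early one on the skull injury side and the late one on the brain injury side.

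The groups of like content were then compared. Between SB2 and BS6, 0 of 35 members were called by edgeR in either direction, where 0.741% of all genes were higher and 1.11% lower. At an unadjusted p under 0.05 there were 3 higher and 13 lower, where 14.6% of all genes were higher and 14.6% lower, and DESeq2 called 6 lower (Itga10, Itgal, Itgam, Itgb2, Itgb7 and Lamc3), where it called 4.61% of all genes lower. In edgeR the log2 values of these 6 shrank without BS6 replicate 2, from -1.78 to -0.53 for Itgam, -1.90 to -0.52 for Lamc3, -1.69 to -0.71 for Itgal, -1.49 to -0.58 for Itgb2, -1.04 to -0.67 for Itgb7 and -1.02 to -0.97 for Itga10. By adjusted p alone 3 laminin alpha chains were lower in SB2 in edgeR, Lama2 by -0.84 ± 0.10 (adjusted p = 0.0282), Lama3 by -0.96 ± 0.17 (adjusted p = 0.038) and Lama5 by -0.52 ± 0.11 (adjusted p = 0.048), against 2.28% of all genes. Their SB2 libraries lay below all BS6 libraries. When any one SB2 library was left out, 0 of all genes had an adjusted p under 0.05 in this comparison. The libraries of SB2 and BS6 did not overlap for 18 of 35 members, and for 38.1% of all genes. Without BS6 replicate 2, Lama1 was higher (1.15) and Lama3 lower (-1.08) in SB2. Between SB4 and BS2, 0 of 30 members were called, where 0.0860% of all genes were higher and 0.0614% lower. Here 1 member was higher and 3 lower at an unadjusted p under 0.05, against 6.32% and 5.56% of all genes, and DESeq2 also called 0. The libraries did not overlap for 5 members (Itga4, Itga8, Itga9, Itgb3 and Lama1), or 16.7% of the 30, close to 16.5% of all genes. Itga2, Itgad, Itgae, Itgal and Itgax were not tested there.

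Within BS6 the members divided by library. In replicate 2, 9 members were at least 1.5 times the mean of replicates 1 and 3, 12 were lower by the same factor and 14 were neither. Of 15451 genes with a BS6 mean of at least 1 CPM, 17.0% were higher and 15.7% lower by that factor. The higher ones were Lamc3 (5.69 times), Itgam (5.07), Itgal (3.86), Itgb2 (3.55), Lamb3 (3.52), Lama1 (3.38), Itgad (2.82), Itga2b (2.06) and Itgb7 (1.86). The lower ones were Lamb1 (0.321), Itgax (0.374), Lamc1 (0.487), Itga9 (0.499), Lama4 (0.514), Itgav (0.531), Itgae (0.545), Itga11 (0.563), Itgb5 (0.577), Itga2 (0.591), Itga5 (0.591) and Itgb1 (0.632). Leukocyte chains and laminins thus stood on both sides. This library also held the high neutrophil markers named before, and a summed osteoblast and osteocyte level of 39349 CPM in this library against 111277 and 159950.2. The part of these cells was not tested.

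**Figure D5:**
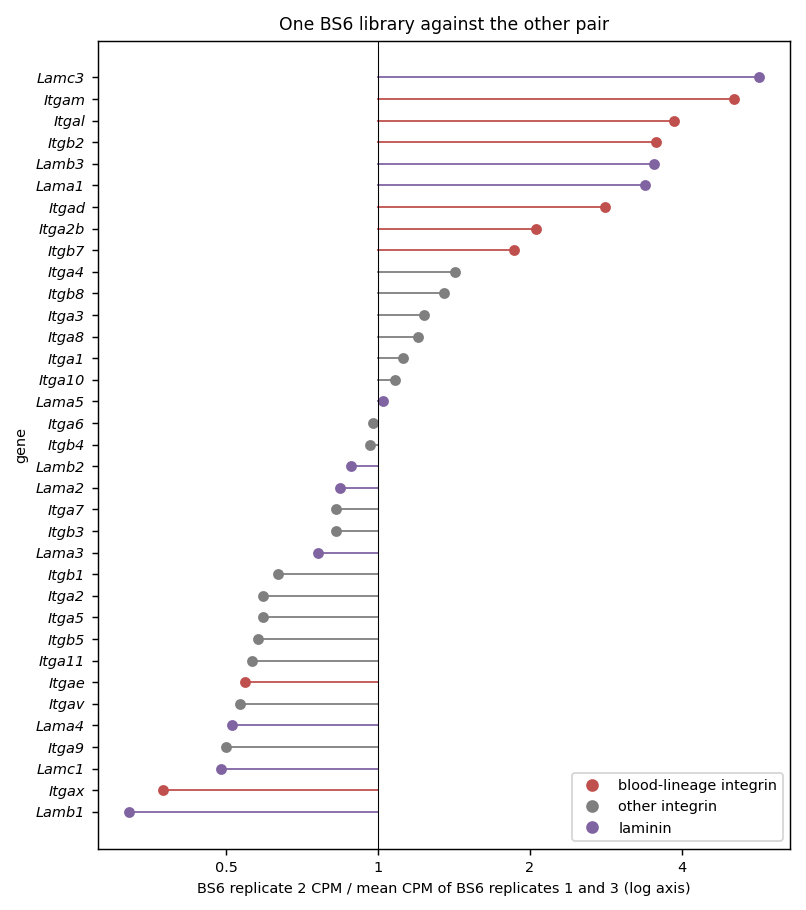
Ratio of the CPM in BS6 replicate 2 to the mean CPM of BS6 replicates 1 and 3 for each member (horizontal log axis), with blood-lineage integrins (Itgal, Itgam, Itgax, Itgad, Itgae, Itgb2, Itgb7 and Itga2b), other integrins and laminins in 3 colours. The ratio runs from 0.321 for Lamb1 to 5.69 for Lamc3, and of the 8 integrins in the blood-lineage colour only Itgax and Itgae lie below 1. Chains also found on blood cells are among the other integrins: Itga2 (0.591) and Itgb3 (0.823) lie below 1 and Itga4 (1.42) above it.

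Other genes of the pathway were counted from lists. Of 19 measured genes for cytoplasmic partners of integrins, 11 were lower and 2 higher in SB4 than in SB2, with a list median of -1.40. Of all genes, 28.6% were lower and 27.8% higher. Fermt3, the kindlin of blood cells, changed by -4.19 ± 0.14 and Tln1, which activates integrins, by -3.44 ± 0.07. The kinases Ptk2b and Ptk2 were higher by 3.85 ± 0.10 and 1.44 ± 0.07. In BS6 against BS2, 13 were higher and 3 lower, where 29.0% and 26.5% of all genes were, led by Fermt3 (5.20 ± 0.55, or 4.48 ± 0.14 without BS6 replicate 2) and Tln1 (3.70 ± 0.23) and by Ptk2b (-2.66 ± 0.37) and Ptk2 (-1.62 ± 0.19). Without BS6 replicate 2, a fit added after seeing the data, Sharpin (1.04, then 0.90) and Tln2 (-1.09, then -0.78) lost their calls. Of 14 tested integrin ligands other than laminins, 12 were lower in SB4 (28.6% of all genes) and 12 higher in BS6 (29.0%), with list medians of -4.76 and 4.85. Ibsp, bone sialoprotein, had at most 3 counts in any SB4 or BS2 library and was at least 17761-fold lower in SB4 than in SB2 and at least 4464-fold higher in BS6 than in BS2. Tnn, a tenascin of bone, had 4, 5 and 2 counts in the SB4 libraries and 23772 to 34418 in those of SB2, so that its fitted change of -12.97 rests on few counts on the low side and is no bound. Spp1, osteopontin, changed by 10.60 ± 0.49 in BS6 against BS2. The smallest called changes of these ligands were those of the endothelial and leukocyte ligands Vcam1 (-2.22 ± 0.13) and Icam2 (-2.89 ± 0.20) in SB4, and of Vcam1 (2.07 ± 0.17) and the cadherin Cdh1 (2.46 ± 0.57) in BS6. Of 13 tested partners of laminin in the basement membrane and other laminin receptors, 8 were lower in SB4 and 11 higher in BS6, against the same shares of all genes, with Hspg2 (perlecan) at -5.96 ± 0.08 and 6.01 ± 0.46 and Nid1 (nidogen) at -5.21 ± 0.14 and 5.65 ± 0.48. The smallest called changes of that list were those of Ntn4 (-1.15 ± 0.10) and Bcam (-2.16 ± 0.13) in SB4, and of Col4a5 (1.37 ± 0.25) and Ntn4 (1.68 ± 0.17) in BS6. In SB2 against BS6 the only call of the 3 lists was Thbs1, thrombospondin, at -1.52 ± 0.32 (edgeR, adjusted p = 0.0486, a call lost without any one SB2 library), and in SB4 against BS2 there was none.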

How the data were processed

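Poly(A) RNA of 12 libraries was read from both ends, and groups were taken from the labels. As the authors describe it, fastp trimmed the reads and HISAT2 2.1.0 aligned them to mm10, and the values deposited are raw counts per gene symbol. The counting program, its annotation, its use of strand and whether ComBat_seq had been applied are not given in the sources used here. Counts are of reads and not of molecules.

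The deposited counts were tested with edgeR 4.0.16 (R 4.3.3) in fits of 2 groups with 3 libraries each, after filterByExpr (minimum count 10) and with TMM factors, robust quasi-likelihood dispersion and Benjamini-Hochberg adjustment over all genes tested. Calls required an adjusted p below 0.05 and a log2 fold change beyond 1 either way. SEs were derived from the fold change and its F statistic. CPM used TMM factors over 12 libraries, and levels per kb used the union of exons in GENCODE M21 (GRCm38), which held all 35 members. The alternatives were DESeq2 1.42.0, other scalings, filters and fits, a replicate block, and each library left out. On simulated data, drawn gene by gene with no departure shared by a whole library, 200 genes were changed 4-fold. The share recovered was 90.5% in SB4 against SB2 (16950 genes), 79.5% in BS6 against BS2 (17019) and 80.5% in SB2 against BS6 (16095). It was 98.5% in SB4 against BS2 (16071) and 70.5% for the difference of both changes (17665). False calls numbered 3, 12, 15, 4 and 7 in the same order. In the data far more genes differed between days, and BS6 replicate 2 departed over many genes together. These shares and false calls therefore need not hold for the data.

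The families, lists and comparisons were chosen with earlier results of these data known, and within the families members were taken by symbol. Values per library are given for chains called in any comparison of 2 groups whose mean reached 1 CPM in some group, and the others by range, except Itga4, Itgav, Lamb3 and the SB2 libraries of Itga7, which were added after their values were seen. From each pathway list, 2 called genes at either end of the order of log2 fold changes are named for each comparison of days. A search for motifs in the proteins was not run, and 1 gene whose symbol fits the naming rule is not reported here.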

Additional observations from a re-analysis of the deposited data

Results flagged for a closer look

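The change from day 2 to day 6 in the libraries labelled bone differed from the change from day 2 to day 4 in those labelled brain for 31 members, as tested by the difference of both log2 changes (BS6 minus BS2, less SB4 minus SB2) in edgeR with Benjamini-Hochberg adjustment, against 73.6% of all genes. Since the groups of each pair also differ in bone and neuron transcripts, in opposite order, day, injury site and tissue content cannot be told apart in these differences. Among collagen receptors the difference was 4.63 for Itga1, 12.01 for Itga2, 10.46 for Itga10 and 11.87 for Itga11. Laminin receptor chains differed by 2.39 (Itga6), 1.36 (Itga7) and 3.30 (Itgb4), and RGD receptor chains by 9.12 (Itga2b), 10.42 (Itga5) and 3.68 (Itga8). The values were 5.48 for Itga9, and for the leukocyte chains 6.08 (Itgad), 4.11 (Itgae), 13.36 (Itgal), 6.96 (Itgam) and 8.67 (Itgax). Beta chains differed by 6.81 (Itgb1), 10.74 (Itgb2), 8.97 (Itgb3), 8.48 (Itgb5) and 11.20 (Itgb7), and Itgb8 by -7.11. The laminin chains differed by 4.21 (Lama2), 1.68 (Lama3), 6.19 (Lama4), 3.99 (Lama5), 7.56 (Lamb1), 7.80 (Lamb2), 4.61 (Lamc1) and 3.93 (Lamc3), and, in the other direction, by -1.73 (Lamb3). Itgad had at most 4 counts in any SB4 library and 3 in any BS2 library and was not tested in SB4 against SB2, so its fitted difference rests on few counts and is no bound. Without BS6 replicate 2 the differences were 12.38 for Itgal, 5.71 for Itgam, 9.85 for Itgb2, 5.39 for Itgad, 2.56 for Lamc3 and -2.61 for Lamb3.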

How the results depend on the processing

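No setting reversed a called value. Of the log2 fold changes refitted under alternatives, 1694 kept their side of the limits, 47 of them with a change of sign of a value that was not called, 27 passed the limits newly and 7 fell short of them. In SB4 against SB2, 3 members were higher by adjusted p alone in place of 1, where 7138 of 17293 genes were. With each library left out the count was 1 to 2 (2 without SB4 replicate 2, which adds Lamb3). In that fit 4863 of 17689 genes were higher. In BS6 against BS2, 1 to 2 were lower with each library left out (2 without BS6 replicate 2, again with Lamb3). Between SB2 and BS6 the 0 members called lower became 6 with DESeq2, 6 with 1 fit over 12 libraries, 1 with RLE factors, 1 with at least 10 counts in every library and 3 by adjusted p alone. With each library left out that count was 0 to 1, and the count of higher members likewise 0 to 1. Between SB4 and BS2, 1 member was lower by adjusted p alone, where 0.369% of all genes were. Over all genes, edgeR called 121 higher and 182 lower between SB2 and BS6, DESeq2 305 and 753, 1 fit over 12 libraries 326 and 947, and edgeR with total counts 163 and 125. Without BS6 replicate 2 the counts were 270 and 397, without BS6 replicate 1 or 3 at most 17 either way, and without any one SB2 library 0. Over the same genes DESeq2 called 25 and 18 between SB4 and BS2, where edgeR called 14 and 10 (26 and 24 with no filter, 22 and 39 with the replicate block, 3 and 5 with 1 fit, 68 and 17 without SB4 replicate 3, 12 and 47 without BS2 replicate 1). Total counts in place of TMM moved the median of all genes to -0.105 in SB4 against SB2, and Itga6 (-1.06) and Lamc3 (-1.08) were then called. Replicate numbers share only a number: deviations of same-numbered libraries correlated at -0.12 to 0.09. With the replicate block 1 member was higher and 25 lower in SB4 against SB2, where 4793 and 4927 of 17293 genes were. In BS6 against BS2, 27 members were higher and 1 lower, where 4910 and 4596 of 17311 genes were, and Itgae (1.46) lost its call. Between like groups 0 members were called with the block, and no gene at all was called between SB2 and BS6. Of the chain shares under other settings, 235 moved by less than 1 SD and 65 by more, all 65 with another length (the longest transcript, or none). Depth limits Itgad, Itgae, Itgal, Itgax, Itga2, Itgb7 and Lamb3, whose counts were low in at least 1 group. Of the pathway genes, Dag1 was called in BS6 against BS2 without BS6 replicate 2 (1.03), and Sharpin and Tln2 were not.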
